A study of Danio rerio with 16 samples.

Results

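The mitotic kinase and spindle genes aurka, kif11, birc5a and dlgap5 were followed in zebrafish after knockdown of the deiodinases, the enzymes that activate or inactivate thyroid hormone. Heads were taken from larvae aged 72 hours after fertilization. All larvae came from the WIK wild-type strain, and all had been injected with morpholinos, antisense oligonucleotides that transiently block translation of the mRNA they bind. SCMO larvae carried the standard control morpholino, D1D2MO larvae carried morpholinos against deiodinases 1 and 2 together, and D3MO larvae carried a morpholino against deiodinase 3, aimed at dio3b. Each condition had 4 pools of 20 dissected heads, hybridised on 16 arrays with 2 colours, of which 6 compared D1D2MO with SCMO, 6 compared D3MO with SCMO and 4 compared D3MO with D1D2MO, with the dyes exchanged between arrays of a set in equal numbers. No label ties a pool to an array, so the p-values measure the spread that the authors' fit gave these arrays. With 4 pools per condition in 10 to 12 array channels, pools were measured more than once, and p-values and intervals are too small if the fit took such repeats as independent. The degrees of freedom recovered from the authors' values, 7.79, are fewer than a fit of the conditions alone to 16 arrays would leave. The terms of the fit, and how it took repeats of a pool, are not known. A morpholino of this kind leaves the mRNA in place, so transcript levels of the deiodinases do not check the knockdown.

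The genes were chosen on the measured values themselves. They came from the authors' lists of probes that differed in any of the 3 comparisons by more than 1.5-fold at an unadjusted p under 0.05, which held 625 of the 20080 probes, and 478 of the listed probes could be matched to 333 gene symbols. Each of the 4 genes had 1 listed probe, and all 4 probes were listed for D3MO against SCMO. The probe of aurka was listed for D3MO against D1D2MO as well, and 0 of the 4 were listed for D1D2MO against SCMO. The values that listed a gene are therefore a description and not a test, and genes of mitosis outside the lists carried no name. The comparison of D1D2MO with SCMO shares the SCMO pools of the comparison that listed all 4 genes, and the comparison of D3MO with D1D2MO shares its D3MO pools. Values per pool or per array were not analysed here. Each value below is the log2 fold change of the authors' deposited fit, where 1 unit is a doubling, with its standard error (SE) or 95% interval and its adjusted p, and a gene rose where the adjusted p was under 0.05 and the change over 1.5-fold (0.585 on the log2 scale).

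Mitosis is driven by kinases whose activity rises and falls once in each cell cycle. The transcripts of their genes and of the spindle proteins accumulate late in the cycle and decline after division, so they are widely used as marks of dividing cells. Aurora kinase A, the product of aurka, acts at the centrosomes, where it promotes their maturation and the assembly of a bipolar spindle. Kinesin family member 11, from kif11, is the motor that slides antiparallel microtubules apart and so separates the spindle poles. The survivin orthologue encoded by birc5a belongs to the chromosomal passenger complex, which carries aurora kinase B to centromeres and corrects wrong attachments of microtubules. The product of dlgap5, known in human cells as HURP, is a substrate of aurora kinase A that stabilises the microtubules attached to kinetochores. In the zebrafish head at this age, dividing cells are found mainly along the brain ventricles and in the ciliary marginal zone at the rim of the retina.

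In D3MO against SCMO all 4 genes were higher, by 1.56-fold to 1.93-fold, as the choice of members required. Over all probes 0.842% rose in this comparison, and 19.3% were higher by the adjusted p alone. The kinase gene aurka (NM_001003640) had the largest value, a log2 fold change of 0.95 with an SE of 0.143 (adjusted p = 0.00165). The spindle motor gene kif11 (NM_173261) was at 0.69 with an SE of 0.0456 (adjusted p = 4.84e-05). The passenger complex gene birc5a (NM_194397) was also at 0.69, with an SE of 0.0615 (adjusted p = 0.000168). The microtubule stabiliser dlgap5 (NM_001004592) was at 0.64 with an SE of 0.058 (adjusted p = 0.000173).

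The 95% intervals show that the order of these values was not resolved. The interval of aurka ran from 0.62 to 1.28 and so held the values of the other 3 genes, 0.64 to 0.69. That of kif11 ran from 0.59 to 0.80. The intervals of birc5a, from 0.55 to 0.83, and of dlgap5, from 0.51 to 0.78, reached below the 1.5-fold threshold. Whether the genes differed from each other was not tested. The threshold cut through closely spaced values, with the lowest probe that rose at 0.5850 and the highest probe kept out by it at 0.5849.

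**Figure D1:**
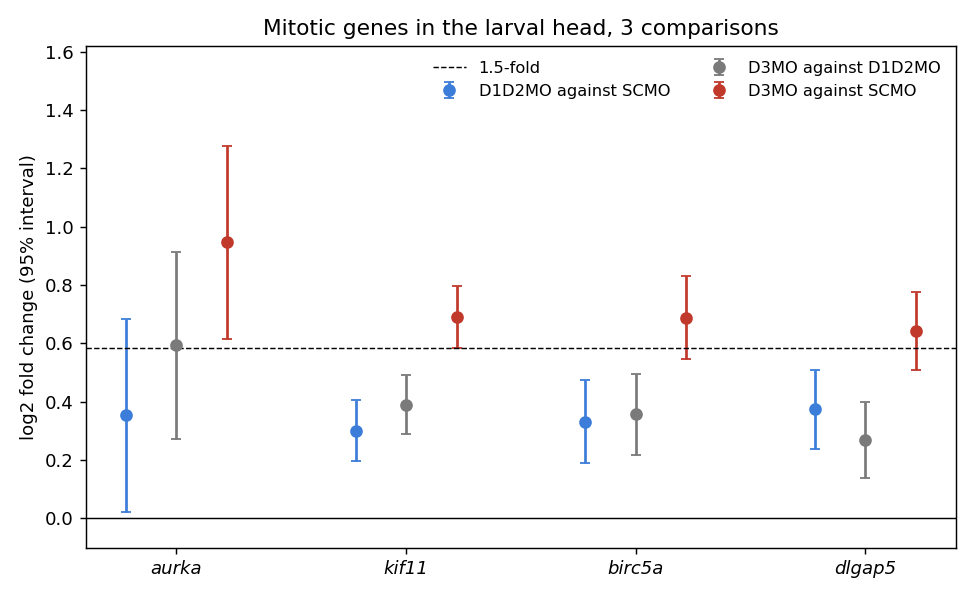
Log2 fold changes of aurka, kif11, birc5a and dlgap5 in D1D2MO against SCMO (blue), D3MO against D1D2MO (grey) and D3MO against SCMO (red), with points for the fitted values, bars for 95% intervals and a dashed line at 1.5-fold. All 12 points lie above 0, with D3MO against SCMO the highest of each gene and the bars of aurka the widest.

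The comparison of D1D2MO with SCMO asked whether the same transcripts differed after knockdown of deiodinases 1 and 2. All 4 genes had values above 0 here too, between 0.30 and 0.37, but 0 of 4 rose, since none reached 1.5-fold. By the adjusted p alone, 3 of 4 were higher in D1D2MO, beside 4.09% of all probes and 36.7% of the probes that rose in D3MO against SCMO. In this comparison only 0.0598% of all probes rose past both thresholds. The SCMO pools enter here as well as in the comparison that chose the genes, so these counts are not independent of that choice.

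The gene with the largest difference in D1D2MO was dlgap5, at 0.37, a 1.30-fold difference with a 95% interval of 0.24 to 0.51 (adjusted p = 0.00813). The passenger complex gene birc5a was at 0.33, with an interval of 0.19 to 0.47 (adjusted p = 0.016). The motor gene kif11 was at 0.30, with an interval of 0.20 to 0.41 (adjusted p = 0.00753). Although its value of 0.35 lay among the others, aurka missed the threshold (adjusted p = 0.164), with an interval of 0.02 to 0.68. The 4 intervals overlapped, and these data set no order among the genes in D1D2MO.

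The knockdowns were set against each other in the fit of D3MO against D1D2MO. The values of this comparison are a description, since its list was 1 of those that chose the genes, with aurka on it, and since all 4 genes were chosen for high values in the same D3MO pools. All 4 genes were higher in D3MO by the adjusted p, beside 12.4% of all probes, and 1 of 4 rose past both thresholds, beside 0.418% of all probes. Among the 169 probes that rose in D3MO against SCMO, 161 (95.3%) were higher here by the adjusted p and 62 rose. The 1 mitotic gene that rose was aurka, with a log2 fold change of 0.59 (SE 0.138, adjusted p = 0.0188), a value 1.51 times that of D1D2MO and so barely over the fold threshold. The others were at 0.39 for kif11 (SE 0.044, adjusted p = 0.00117), 0.36 for birc5a (SE 0.0594, adjusted p = 0.00525) and 0.27 for dlgap5 (SE 0.0559, adjusted p = 0.0123). Each of the 4 genes thus had its lowest fitted level in SCMO, an intermediate level in D1D2MO and its highest level in D3MO. For aurka the step from SCMO to D1D2MO did not pass the test.

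The fitted steps of that rise are given here gene by gene. Of the fitted difference between D3MO and SCMO, dlgap5 had 0.37 between SCMO and D1D2MO and 0.27 between D1D2MO and D3MO, whereas aurka had 0.35 and 0.59. For kif11 the steps were 0.30 and 0.39, and for birc5a 0.33 and 0.36. The first step of dlgap5 was larger than the second, and the reverse held for the other 3 genes, but the intervals of the steps overlapped in each gene and their difference was not tested.

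The 169 probes that rose in D3MO against SCMO include the 4 genes, whose lists used the same fold but the unadjusted p, and give a closer background for the other comparisons. The median of these probes was 0.21 in D1D2MO against SCMO, with quartiles of 0.12 and 0.29, and 62 of them (36.7%) were higher there by the adjusted p. All 4 mitotic genes lay above the upper quartile. Of the 169 probes, 23 had a larger value than dlgap5 in D1D2MO, 27 a larger value than aurka, 31 a larger value than birc5a and 41 a larger value than kif11. In D3MO against D1D2MO the median of the same probes was 0.50, and 161 of them (95.3%) were higher there by the adjusted p. There 163 of the 169 had a larger value than dlgap5, 145 a larger value than birc5a and 135 a larger value than kif11. Only aurka lay above that median, with 57 probes larger. Compared with other transcripts that rose in D3MO, kif11, birc5a and dlgap5 therefore stood high in D1D2MO and low in the step from D1D2MO to D3MO. That step is the D3MO value minus the D1D2MO value, each against SCMO. The D3MO values of these genes lay near the median of the 169 probes, 0.68. Their low step thus follows from their high D1D2MO values and is no separate result. Both rankings are a description without a test.

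**Figure D2:**
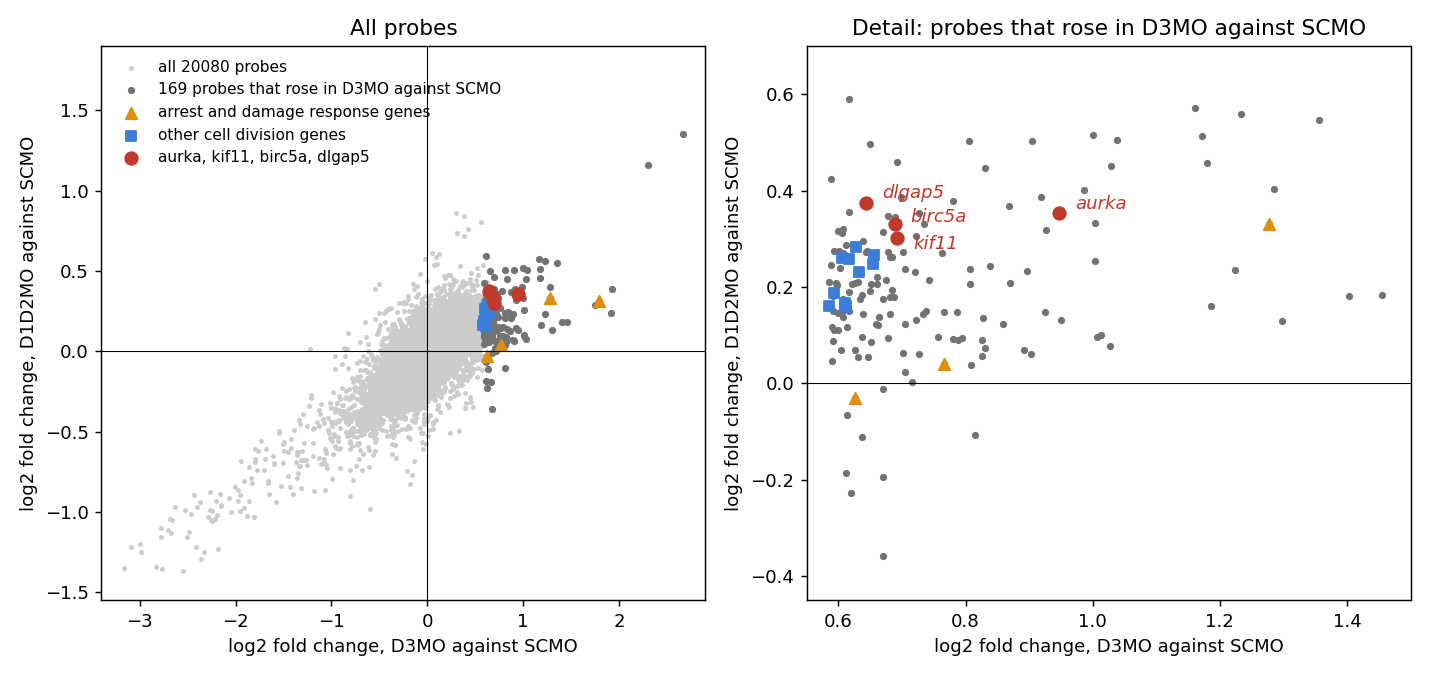
Each point is a probe, with its log2 fold change in D3MO against SCMO on the horizontal axis and in D1D2MO against SCMO on the vertical axis. The left panel holds all 20080 probes and the right panel only the 169 that rose in D3MO, up to a log2 fold change of 1.5, which leaves 6 outside. The axes share the SCMO pools, so points tend to spread along the diagonal without any effect of the morpholinos. The 4 mitotic genes (red) lie at 0.30 to 0.37 on the vertical axis, above most of the probes that rose.

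Precision differed among the probes. The SE of aurka, 0.143 against SCMO, was larger than that of 95.9% of all probes, and the median SE over all probes was 0.055. The SEs of birc5a and dlgap5 lay near the middle of all probes, at percentiles of 60.4 and 55.2, and that of kif11 was low, at a percentile of 27.8. The wide interval of aurka and its missed threshold in D1D2MO go together with this SE, since its value there was larger than those of kif11 and birc5a, which passed. Brightness did not set aurka apart. Its mean log2 intensity over all arrays, the authors' mean, was 9.71, beside 10.2 for kif11, 9.53 for birc5a and 8.86 for dlgap5. The listed probes had a median of 8.92 and ran from 6.80 to 15.7. Intensity depends on the probe as well as on the transcript, so these means give no order of abundance.

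**Figure D3:**
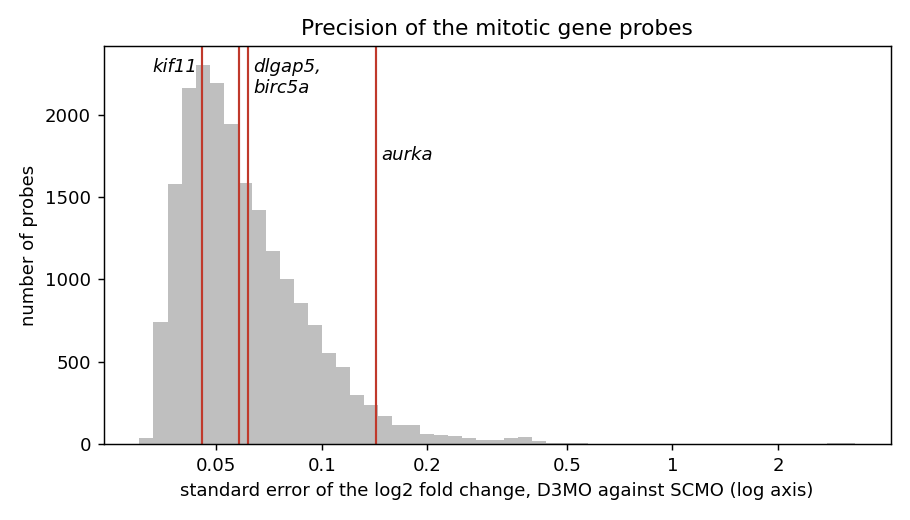
Histogram of the SE of the log2 fold change in D3MO against SCMO over all probes, on a log axis, with the vertical lines marking the probes of the 4 mitotic genes. The line of kif11 stands at 0.0456, those of dlgap5 and birc5a at 0.058 and 0.0615, and that of aurka at 0.143 in the upper tail.

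The rest of the division machinery was followed through 166 genes in lists by role, of which 15 had a named listed probe, the 4 genes above included. All 15 rose in D3MO against SCMO and 0 fell, which follows largely from taking named probes from the lists, and their median was 0.63 beside a median of -0.0023 over all probes. In D1D2MO against SCMO the 15 values were all above 0, with a median of 0.26, and 0 of 15 rose. Of these genes, 13 had an unadjusted p under 0.05, beside 12.1% of all probes higher at that p. The adjusted p was passed by 8, beside 4.09% of all probes and 36.7% of the probes that rose in D3MO against SCMO. In D3MO against D1D2MO the median was 0.40, and 14 of 15 were higher by the adjusted p, beside 12.4% of all probes. Only 1, aurka, rose, beside 0.418% of all probes. Of the 169 probes that rose in D3MO against SCMO, as all 15 genes did, 161 (95.3%) were higher in this comparison and 62 rose. The 14 of 15 thus did not stand out from probes chosen in the same way. Apart from aurka, the values in D3MO against SCMO lay in a narrow band of 0.59 to 0.69, whose lower end is the fold threshold. Division genes with smaller differences had no place in the lists, so these counts do not describe the lists as a whole.

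Among the mitotic kinases and their regulators, the phosphatase gene cdc25b, which activates the cyclin-dependent kinase at entry into mitosis, was the 1 gene named beside aurka. It rose in D3MO with a log2 fold change of 0.61 (adjusted p = 0.000506) and was at 0.26 in D1D2MO, just short of the threshold (adjusted p = 0.0554).

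Of the spindle motors and spindle proteins, kifc1 and nusap1 rose in D3MO beside kif11 and dlgap5. The minus-end motor gene kifc1, whose product pulls against kinesin 11 in the spindle, was at 0.63 in D3MO (adjusted p = 0.000331) and at 0.28 in D1D2MO (adjusted p = 0.0339). The spindle-associated gene nusap1, which bundles microtubules near chromosomes, was at 0.61 in D3MO (adjusted p = 0.0137). Its SE exceeded that of 96.3% of probes, and its values of 0.16 in D1D2MO (adjusted p = 0.557) and 0.45 between the knockdowns (adjusted p = 0.0552) did not pass.

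The chromosomal passenger and kinetochore list had 5 named genes of 31, and all 5 rose in D3MO, beside 0.842% of all probes. This too follows largely from naming genes through the lists of changed probes. Borealin, from cdca8, is a partner of survivin in the passenger complex, and its gene was at 0.61 in D3MO (adjusted p = 0.00158) and 0.17 in D1D2MO (adjusted p = 0.297). The genes ndc80 and nuf2 encode the pair of proteins through which the kinetochore grips the microtubule. In D3MO they were at 0.63 (adjusted p = 6.69e-05) and 0.62 (adjusted p = 0.000378), and in D1D2MO at 0.23 (adjusted p = 0.0193) and 0.26 (adjusted p = 0.0486). The shugoshin gene sgo1, which protects centromeric cohesion until anaphase, was at 0.65 in D3MO (adjusted p = 0.000229) and at 0.25 in D1D2MO (adjusted p = 0.0452).

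The remaining named division genes came from the lists for chromosome condensation and cohesion, for cyclins and the anaphase-promoting complex, and for replication. The condensation regulator rcc1, the exchange factor of Ran on chromatin, was at 0.66 in D3MO (adjusted p = 3.42e-05) and 0.27 in D1D2MO (adjusted p = 0.00753). The entry factor gene cdca3 had 2 probes, both at the fold threshold in D3MO (0.585 each), and its brighter probe was at 0.16 in D1D2MO (adjusted p = 0.118). From the replication list, the chromatin assembly gene chaf1a was at 0.61 in D3MO (adjusted p = 0.000176) and at 0.16 in D1D2MO (adjusted p = 0.114), and the clamp loader gene chtf18 was at 0.59 (adjusted p = 0.000334) and 0.19 (adjusted p = 0.101). One further gene of that list, the origin recognition subunit orc2, had a probe named by the study's transcript list but listed in none of these comparisons, at 0.38 in D3MO with an interval of -0.20 to 0.96 (adjusted p = 0.265). By role, 3 of the 4 named spindle genes and 4 of the 5 named passenger and kinetochore genes passed the adjusted p in D1D2MO. The 1 named condensation gene passed as well, beside 4.09% of all probes and 36.7% of the probes that rose in D3MO against SCMO. Of the named kinase and regulator genes 0 of 2 passed, of the cyclin list 0 of 1 and of the replication genes 0 of 2. Both replication genes had an unadjusted p under 0.05 there. Whether the roles differ was not tested.

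**Figure D4:**
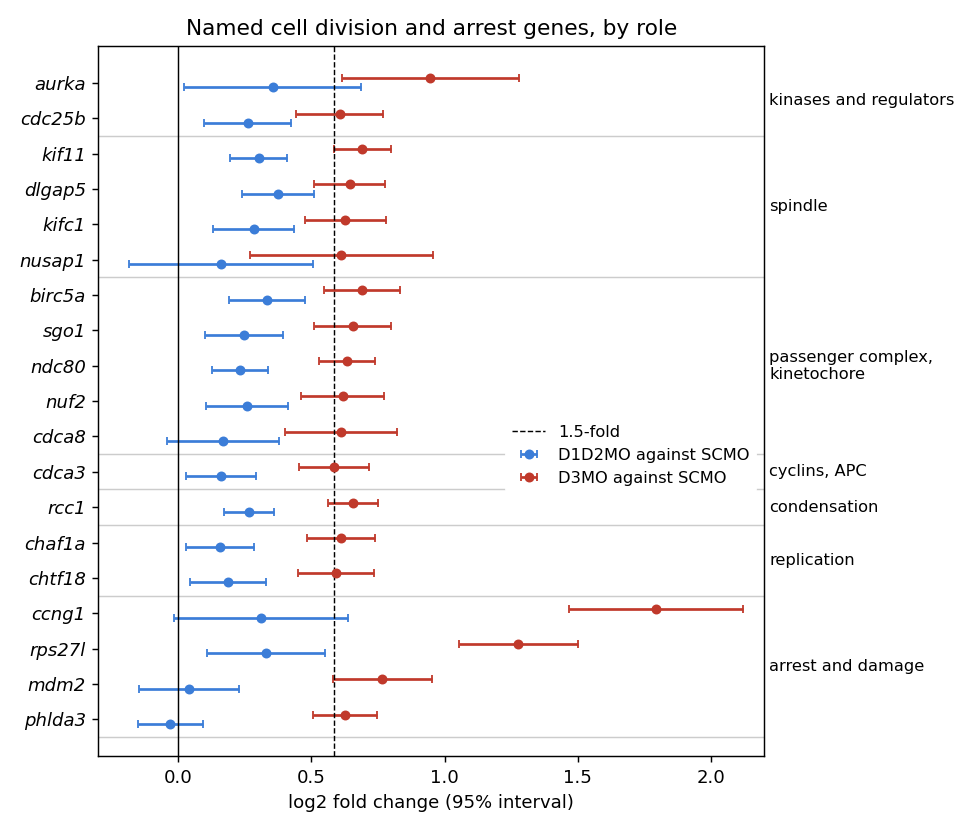
Log2 fold changes with 95% intervals of the 15 named cell division genes and of 4 arrest and damage response genes in D1D2MO against SCMO (blue) and D3MO against SCMO (red), grouped by role, with a dashed line at 1.5-fold. The red points of the division genes other than aurka lie between 0.59 and 0.69, and the blue points of the division genes between 0.16 and 0.37. The arrest and damage response genes reach 1.80 in D3MO.

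Genes of the arrest and damage response list rose in D3MO alongside those of division. The list for arrest and damage response, as used here, had 4 named genes of 15, and these too have a name because their probes were on the lists of changed probes. All 4 rose in D3MO against SCMO, beside 0.842% of all probes, and in D3MO against D1D2MO, beside 0.418%, and 0 passed in D1D2MO against SCMO. Of the 169 probes that rose in D3MO against SCMO, 62 also rose in D3MO against D1D2MO. The cyclin G1 gene ccng1, induced by DNA damage, was at 1.80 in D3MO (adjusted p = 0.000104) and 0.31 in D1D2MO (adjusted p = 0.21) on the brightest of its 4 probes, and the others were at 1.19 to 1.75 in D3MO. The ribosomal protein paralogue rps27l was at 1.28 in D3MO (adjusted p = 8.34e-05) and 0.33 in D1D2MO (adjusted p = 0.0684). The ubiquitin ligase gene mdm2 was at 0.77 in D3MO (adjusted p = 0.000335) and phlda3, an inhibitor of Akt signalling, at 0.63 (adjusted p = 0.000125). In D1D2MO mdm2 was at 0.04 and phlda3 at -0.03, where dlgap5, with much the same value as phlda3 in D3MO, was at 0.37. Between the knockdowns phlda3 differed by 0.66 and mdm2 by 0.73, beside 0.27 to 0.59 for the 4 mitotic genes.

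Of the 8 head and eye markers, 6 were named, and among these gabra6a was the only brain gene. The cone opsins opn1mw1 and opn1sw1, the rod opsin rho, the lens genes grifin and crygm2d11 and the cerebellar receptor gene gabra6a were all named. All 6 fell in D3MO, with a median of -1.95, beside 399 of all 20080 probes. In D1D2MO 3 of them fell, beside 131 of all probes. The forebrain and midbrain markers foxg1a and otx2b were not among the named genes. Named genes of the erythroid, skeletal muscle, epidermis and fin fold, and Hox lists were higher in D3MO, as the mitotic genes were. All 4 named Hox genes of 7 and all 3 named epidermis and fin fold genes of 6 rose, beside 0.842% of all probes. So did both named erythroid genes of 6 and 3 of the 4 named skeletal muscle genes of 7. The list medians were 1.02, 0.69, 1.56 and 0.85. The muscle gene that did not rise was acta1b, at 0.42 in D3MO and 0.76 in D1D2MO. Between the knockdowns acta1b was lower in D3MO, at -0.34 (adjusted p = 0.00124). In D1D2MO 0 Hox, 0 epidermal, 1 erythroid and 1 muscle gene (acta1b) rose, beside 0.0598% of all probes. By the adjusted p alone, 1 Hox, 2 epidermal, 1 erythroid and 2 muscle genes were higher in D1D2MO, beside 4.09% of all probes. The list medians in D1D2MO were 0.18, 0.46, 0.60 and 0.26 in the same order. Marker genes too were named only where a probe was on the lists of changed probes, so these counts say nothing of the markers that were not named. Their part in the higher values of the mitotic genes was not tested. In pooled heads, more dividing cells and more transcript in each dividing cell cannot be told apart.

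The named genes whose values lay closest to those of the 4 mitotic genes, over the comparisons of D1D2MO and D3MO with SCMO, came from different functions. Closeness was the Euclidean distance on the log2 scale over these 2 comparisons, among 317 of the named genes outside the division lists. The 3 nearest to aurka were hes2.1 (0.32 in D1D2MO and 0.93 in D3MO, distance 0.0414), the troponin gene tnni2b.2 (0.37 and 0.87, distance 0.0795) and hes2.2 (0.45 and 1.03, distance 0.127), where the hes2 genes encode repressors of the Hes family. Nearest to birc5a were zgc:85936 (distance 0.0135), the splicing factor gene srsf6a (0.018) and nfya, a subunit of the CCAAT-binding factor NF-Y (0.0451). For dlgap5 these were srsf6a (0.0443), zgc:85936 (0.0543) and the corepressor gene ctbp1l (0.0722). For kif11 they were the translation release factor gene etf1b (0.0314), zgc:110425 (0.0329) and the troponin gene tnni2a.4 (0.0402). All 12 distances except that of ctbp1l were smaller than the SE of the mitotic gene in D3MO against SCMO, so the ranks are not firm.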

How the data were processed

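RNA from pooled zebrafish larval heads was measured on Agilent arrays with 2 colours. The authors dropped a probe only where its signal was under background plus 2 standard deviations on every array. They corrected the background by a normal-exponential model, normalised within arrays by loess and fitted all arrays in limma (version not given in the sources used here). They deposited 1 table with the log2 fold change and p-value of every probe and 3 tables of listed probes. The deposited log2 values are fold changes between conditions and, for listed probes, mean log2 intensities. The deposited p-values are limma's, unadjusted and adjusted by the Benjamini-Hochberg method, and the deposited scores are its t and log-odds statistics. All these columns are the authors' own comparisons, and they were used here because the genes are defined through them. No values per array were analysed here.

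From these, the degrees of freedom (7.79) were recovered from listed t and p-values, the t of each probe from its p-value and sign, and the SE as log2 fold change over t, which gave the 95% intervals. P-values were adjusted over all 20080 probes. The number of arrays limits the precision. Probes were named through RefSeq accessions in the deposited tables, and further probes through the study's transcript list, of which only names were used. For genes with several probes the brightest was taken, and 26 control spots stayed in the adjustment. The scripts (Python 3.11.15, scipy 1.17.1) were tested on simulated data.

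The genes named are the 4 mitotic genes, the members of the lists with a listed probe, and the 3 nearest genes of each mitotic gene. The members and lists were chosen with earlier results of these data known, and 1 gene of the arrest and damage response list, taken out after its values had been seen, is not reported here and enters no count of list members or nearest genes. The alternatives tried were the adjusted p alone, a test against the 1.5-fold threshold, adjustment without control spots, centring on the median of all probes, the mean over a gene's listed probes, and leaving out the dimmest 25% of listed probes.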

Additional observations from a re-analysis of the deposited data

How the results depend on the processing

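The counts of genes called depended on the fold threshold. By the adjusted p alone, the members higher went from 0 to 3 of 4 in D1D2MO against SCMO and from 1 to 4 of 4 in D3MO against D1D2MO, and the cell division genes from 0 to 8 and from 1 to 14 of 15. Over all probes the share went from 0.0598% to 4.09% and from 0.418% to 12.4%. Among the 169 probes that rose in D3MO against SCMO, the count went from 3 to 62 and from 62 to 161. When the test was set against 1.5-fold in place of 0, with p-values adjusted over all probes, the members went from 4 to 0 in D3MO against SCMO and from 1 to 0 in D3MO against D1D2MO, and the cell division genes from 15 to 0 and from 1 to 0. At an unadjusted p under 0.05 against 1.5-fold, 2 of 4 members and 2 of 15 division genes passed in D3MO against SCMO. Over all 20080 probes 76 passed, and 25 passed when adjusted. The 15 genes were all among the 169 probes that rose, and only probes over 1.5-fold can pass this rule. The share over all probes is therefore no like background for them. The adjustment without control spots and the centring changed 0 of these counts, and on centring the 12 values of the members moved by at most 0.00692 on the log2 scale, with no call changed. The mean over listed probes is the same value, since each member has 1 listed probe. Any probe of these genes outside the lists and the study's transcript list would carry no name here. Without the dimmest 25% of listed probes, 14 of 14 division genes rose in D3MO against SCMO, beside 0.842% of all probes. With spdl1, added after its values were seen, 16 of 16 did. These genes were named only through the lists of changed probes, so both counts could hardly have come out otherwise and are no check. No paired analysis was possible because the tables used here hold no values per array or pool, and leaving out each pool was not run for the same reason. Signal over background was not analysed here.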

Other observations

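Several named genes outside the lists also act in division or bind chromatin, and they were picked after their values were seen. The kinetochore adaptor gene spdl1, which recruits the motor dynein, rose in D3MO against SCMO with a log2 fold change of 0.59 (adjusted p = 0.000509) and was at 0.27 in D1D2MO against SCMO (adjusted p = 0.0441). The importin gene kpna2, which carries nuclear cargo and regulates spindle assembly factors, was at 0.65 in D3MO (adjusted p = 3.09e-05) and 0.19 in D1D2MO (adjusted p = 0.021). The endonuclease subunit gene eme1, which acts on recombination intermediates, was at 0.90 in D3MO (adjusted p = 5.86e-05) and 0.23 in D1D2MO (adjusted p = 0.0519).

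Genes of high mobility group chromatin proteins went different ways. The gene hmgb2b was at 0.59 in D3MO (adjusted p = 0.000103) and 0.42 in D1D2MO (adjusted p = 0.00228), with 0.17 between the knockdowns (adjusted p = 0.0321). The probe of hmga1b fell in D3MO by 0.89 on the log2 scale (adjusted p = 0.00689) and was at -0.37 in D1D2MO (adjusted p = 0.252). In D3MO the SE of hmga1b exceeded that of 97.8% of probes, and its interval ran from -1.32 to -0.46. A probe of its paralogue hmga1a, named by the study's transcript list, was at 0.48 in D3MO (adjusted p = 0.0003) and 0.15 in D1D2MO (adjusted p = 0.104). Probes named only by the transcript list were on none of the lists of changed probes, so none of them could have risen here. That holds for hmga1a and for the chromatin genes dek and h2az2b. The probe of dek was at 0.14 in D3MO (adjusted p = 0.265) and 0.06 in D1D2MO (adjusted p = 0.71), and that of the histone variant gene h2az2b at 0.35 in D3MO (adjusted p = 0.0193) and 0.16 in D1D2MO (adjusted p = 0.342). Paralogues can share sequence, so probes of hmga1a and hmga1b are uncertain as measures of either gene alone.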
